A study of Saccharomyces cerevisiae with 50 samples.

Results

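The autophagy (ATG) genes of Saccharomyces cerevisiae were taken as every gene whose symbol in the R64 reference annotation is ATG followed by a number. There were 37 of them among 6430 nuclear genes. Their promoters, the 600 bp upstream of the gene start, were looked up in ChIP-Seq peak lists of 6 transcription factors. A promoter was counted as occupied in a list when a peak overlapped it by at least 1 bp.

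Autophagy is the route by which a starving cell encloses cytoplasm in a double membrane and delivers it to the vacuole for breakdown. The kinase complex TORC1 holds it back in rich medium by keeping the Atg1 kinase complex inactive, and rapamycin, an inhibitor of TORC1, starts it. Atg1p and its partners then recruit Atg9p vesicles, a phosphatidylinositol 3-kinase complex and the enzymes that join Atg8p to lipid, and receptor proteins choose the cargo. Gcn4p, the activator of amino acid biosynthesis genes, is known to act on transcription of ATG genes in starved cells, ATG41 among them.

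The series holds 50 samples, 30 immunoprecipitations (IPs) and 20 INPUT samples, from strains in the W303 Z1256 background that carry a c-myc tag at the C-terminus of the factor. Each factor was immunoprecipitated from a strain in which the gene of its predicted cofactor was replaced by a kanamycin resistance marker, and from a strain with that gene intact, called wild type here. The question was whether each factor needs its cofactor to occupy promoters. Gcn4p was assayed in rtg3Δ and wild type, and Rtg3p, a helix-loop-helix activator of the mitochondrial retrograde response, in gcn4Δ and wild type. These 4 groups of 3 IPs came from rich glucose medium (YPD) at an OD600 of 0.7, followed by 20 min in 100 nM rapamycin. Without rapamycin, Sut1p, a zinc cluster factor of sterol uptake, was assayed in nrg1Δ and wild type, and Nrg1p, a repressor of glucose-repressed genes, in sut1Δ and wild type, with 3 IPs per strain in YPD at an OD600 of 0.8. Swi4p, the DNA-binding subunit of the cell cycle factor SBF, had 1 IP in swi6Δ and 1 in wild type under those conditions. Swi6p, its partner subunit, had 2 IPs in swi4Δ and 2 in wild type, and neither labels nor methods state its growth medium. Wild-type replicates were split from a single culture whereas deletion strains were grown separately, so that strain and culture cannot be told apart and p-values measure only the spread between these IPs.

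The lists held 3 to 1065 peaks, and their depth is unknown because they give no read counts. Each peak carries the MACS score, which is -10 times the log10 of its p-value. The lowest score was 50.0, and 197 of the 8486 peaks had exactly 3100.0, so that equal scores of 3100.0 do not show equal enrichment. The scores are not scaled between lists. Promoters known for Gcn4p, Rtg3p, Swi4p and Swi6p were looked up as a check, and no such check was made for Sut1p or Nrg1p. Of amino acid biosynthesis promoters, 5 of 6 had a Gcn4p peak in at least 2 IPs in rtg3Δ and 5 of 6 in wild type. Of G1 cyclin and related promoters, 5 of 5 had peaks of Swi6p in wild type and of Swi4p in both strains. No Rtg3p IP had a peak at any of 5 retrograde response promoters, so the Rtg3p lists lack these known targets of that factor. Of these 5, ACO1 had Sut1p scores of 352.8 and 1674.4 in wild-type replicates 1 and 2, and no peak in replicate 3. IDH1 had Swi6p scores of 95.4 and 64.9 in wild type. Over all promoters, 3.56% had a Sut1p peak and 5.66% a Swi6p peak in at least 2 wild-type IPs. The lists of some IPs stood apart. Sut1p wild-type replicate 3 shared 3.97% and 8.24% of the union of occupied promoters with replicates 1 and 2, which shared 38.9% with each other. Gcn4p rtg3Δ replicate 1 had a median score of 446.2, against 216.7 and 167.3 in the other rtg3Δ IPs and 142.3 to 154.5 in wild type.

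Of the 37 ATG promoters, 20 (54.1%) had a peak in at least 1 of the 30 lists, against 3231 of all 6430 promoters (50.2%). Altogether 70 peaks overlapped them. In 41 of the 70, the gene start nearest to the peak centre was that of the ATG gene, in 21 the centre lay inside the 600 bp promoter, and 55 peaks overlapped the promoters of other genes too. A peak at an ATG promoter was therefore often shared with a neighbour. The 20 genes with a peak had 12 divergent upstream neighbours and a median gap to the upstream gene of 558.5 bp, and the 17 without had 6 divergent neighbours and a median gap of 359.0 bp.

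**Figure D1:**
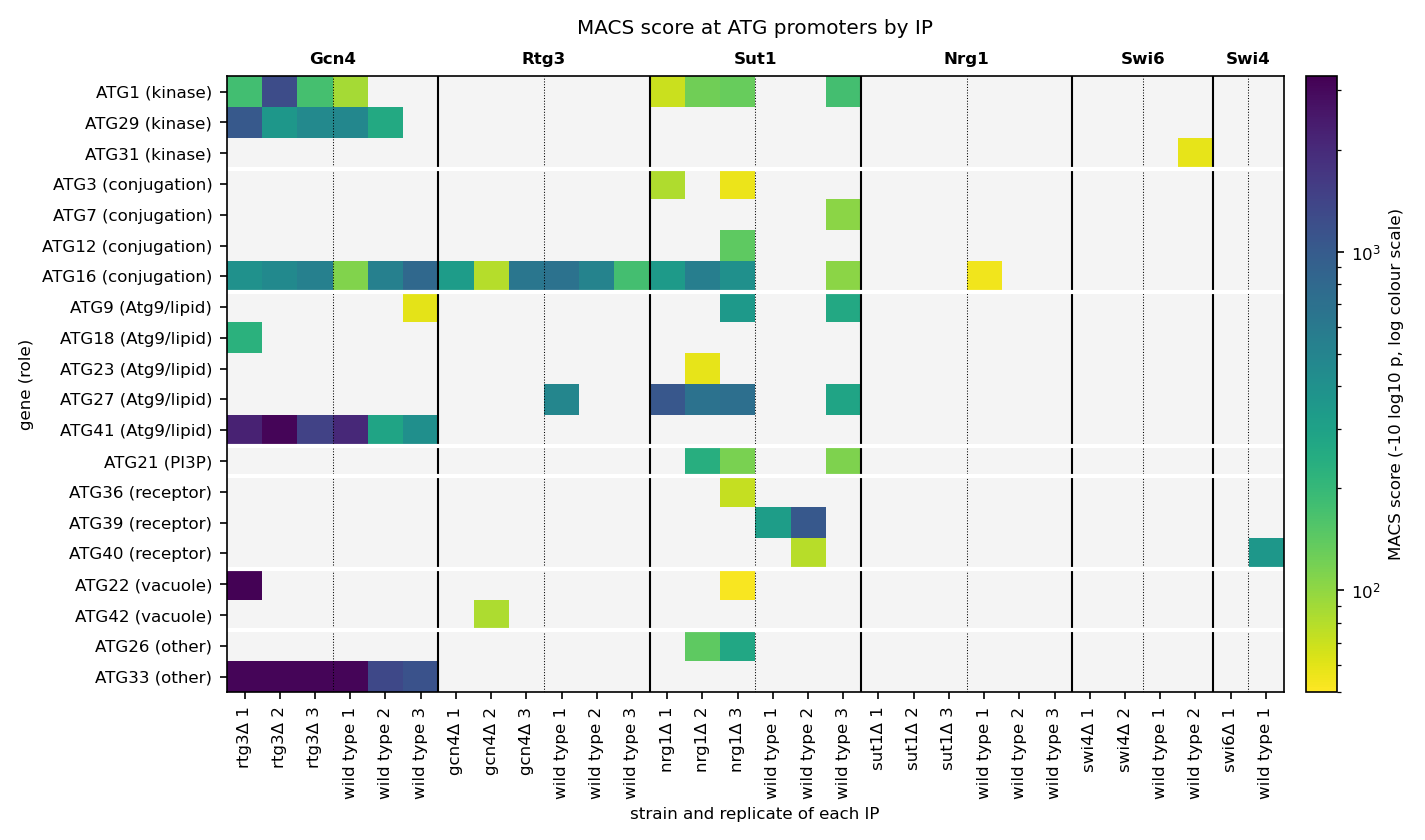
MACS score (colour, log scale) of the highest peak at each of the 20 ATG promoters with a peak, grouped by role of the gene (vertical), in each of the 30 IPs (horizontal); grey cells have no peak. ATG16 had a peak in 17 IPs, ATG16, ATG33 and ATG41 had a Gcn4p peak in all 6 IPs and ATG29 in 5, and the Nrg1p, Swi6p and Swi4p lists held 3 ATG peaks together.

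The 17 ATG genes without a promoter peak in any list covered most steps of the pathway. They included ATG13 and ATG17, the regulatory and scaffold subunits of the Atg1 kinase complex. ATG8, the ubiquitin-like protein of the autophagosome, was among them, with ATG4, ATG5 and ATG10 of the conjugation systems. So were ATG14 and ATG38 of the phosphatidylinositol 3-kinase complex, and ATG20, whose product binds the lipid that this kinase makes. The cargo receptor and scaffold genes were ATG11, ATG19, ATG32 and ATG34. The rest were ATG2, a lipid transfer protein, ATG15, a vacuolar lipase, and ATG44 and ATG45. ATG8, whose transcript is a common marker of autophagy induction, was thus without a promoter peak of Gcn4p or Rtg3p in all 12 IPs from rapamycin-treated cells. Most promoters were without one too. Of all 6430, 1501 had a Gcn4p peak and 667 an Rtg3p peak in any IP. With depth unknown, an absent peak does not show an unoccupied promoter.

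In rapamycin-treated cells, Gcn4p occupied 7, 5 and 5 ATG promoters in the rtg3Δ IPs, against 5, 4 and 4 in the wild-type IPs. The mean share of ATG promoters in rtg3Δ was 15.3 ± 3.12% (SD, n = 3), against 8.53 ± 1.55% of all promoters in the same IPs. In wild type it was 11.7 ± 1.56%, against 10.1 ± 0.358% of all promoters (SD, n = 3). The ATG share lay above that of all promoters in each of the 6 IPs, by the least in wild-type replicate 3 (10.8% and 10.5%). In wild-type replicates 2 and 3 the gap was less than 1 promoter, which is 2.7% of the 37. The IPs also repeated the same genes, as 3 ATG promoters had a peak in all 6, where 2.13% of all promoters did. When only peaks centred inside the promoter were counted, the shares were 3.6% of ATG promoters and 3.53% of all promoters in rtg3Δ, and 1.8% and 3.22% in wild type. When a peak counted for the nearest gene start only, chosen after seeing the data, they were 12.6% and 5.11% in rtg3Δ, and 5.41% and 5.76% in wild type. Counting promoters with a peak in at least 2 IPs of a strain, called supported here, 5 of 37 ATG promoters were supported in rtg3Δ, where 6.89% of all promoters were, and 4 of 37 in wild type, where 8.72% were. ATG29, ATG33, ATG41 and ATG16 were supported in both strains, and ATG1 only in rtg3Δ.

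**Figure D2:**
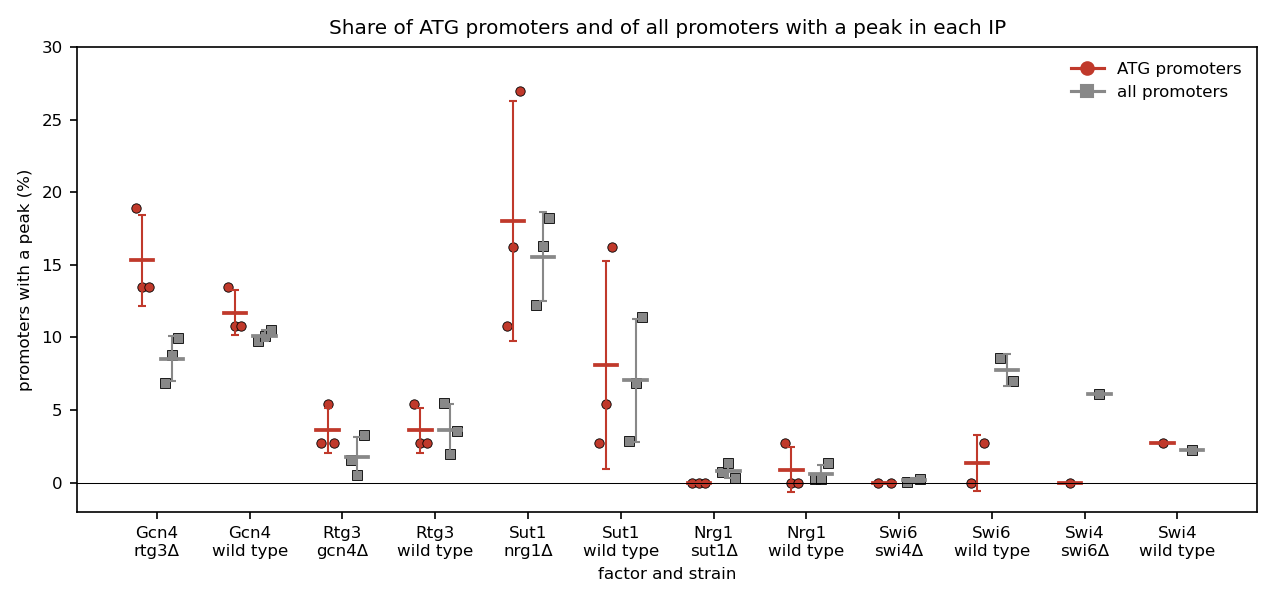
Percent of the 37 ATG promoters (red circles) and of all 6430 promoters (grey squares) with a peak in each IP, by factor and strain, with the mean (bar) and SD over IPs (whiskers; none for Swi4p, with 1 IP). The Gcn4p rtg3Δ IPs had 13.5% to 18.9% of ATG promoters, against 6.87% to 9.95% of all promoters, and the points of both sets overlapped for Rtg3p and Sut1p in either strain.

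Of the Atg1 kinase complex genes, ATG1, which encodes the kinase that starts autophagy (chromosome 7 from 160065 to 162758, forward strand), had Gcn4p scores of 177.5, 1244.2 and 172.9 in rtg3Δ replicates 1 to 3. In wild type it had 87.7 in replicate 1 and no peak in replicates 2 and 3, counted as 0. Every rtg3Δ IP was above every wild-type IP, with 1 of the 3 rtg3Δ scores far above the other two. The means were 531.5 ± 617.2 in rtg3Δ and 29.2 ± 50.7 in wild type (SD, n = 3 each), a difference of 502.3 (two-sided exact permutation test, p = 0.1, the smallest that 3 against 3 allows; adjusted p = 1.0). The 4 peaks were centred 673 to 860 bp upstream of the gene start, beyond the 600 bp promoter, and ATG1 was the nearest gene in each. When scores were replaced by their percentile within the list, rtg3Δ IPs had 13.6, 84.1 and 51.5, which overlapped the 28.3 of wild-type replicate 1, while the mean stayed higher in rtg3Δ by 40.3 percentile points. The strains also overlapped with a promoter of 300 bp and with equal numbers of peaks per list, where the difference in means was 443.1 in each, and no peak was left when its centre had to lie inside the promoter.

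ATG29, whose product holds the Atg17 scaffold together with Atg31p (chromosome 16 from 237338 to 237979, forward strand), had Gcn4p scores of 1022.9, 359.7 and 457.8 in rtg3Δ. In wild type it had 478.4, 260.1 and no peak. The strains overlapped, with means of 613.4 ± 358.0 in rtg3Δ and 246.2 ± 239.5 in wild type (SD, n = 3 each; difference 367.3; exact permutation test, p = 0.3; adjusted p = 1.0). The 5 peaks covered the whole promoter, which ATG29 shares with the divergent gene REV3, 230 bp away, and the peak centre was nearer to REV3 in 3 of them.

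Among the genes that act with Atg9p, ATG41, which encodes an Atg9p-binding protein (chromosome 16 from 74309 to 74719, reverse strand), had Gcn4p scores of 2206.8, 3100.0 and 1450.7 in rtg3Δ. In wild type the scores were 2042.2, 284.0 and 411.7. The peaks stood within the upper part of each list, at percentiles 70.0 to 95.4, and wild-type replicate 1 fell within the rtg3Δ range. The means were 2252.5 ± 825.6 in rtg3Δ and 912.6 ± 980.3 in wild type (SD, n = 3 each; exact permutation test, p = 0.2; adjusted p = 1.0). In 5 of 6 IPs the gene start nearest to the centre was that of ATG41, 6 to 207 bp away, and these centres lay inside the gene rather than upstream of it. In wild-type replicate 3 the centre lay 1193 bp downstream, nearest to the start of the neighbouring gene YAH1. Each of the 6 peaks also overlapped the promoter of YAH1.

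ATG33, which encodes a mitochondrial protein needed for mitophagy (chromosome 12 from 840321 to 840914, forward strand), had the highest mean Gcn4p score of the ATG promoters in both strains. It had 3100.0 in each rtg3Δ IP, against 3100.0, 1321.6 and 1139.4 in wild type. The equal values in rtg3Δ are the shared score of 3100.0, and wild-type replicate 1 tied with them (exact permutation test, p = 0.4; adjusted p = 1.0). ATG33 shares its upstream region with the divergent gene ILV5, an enzyme of branched-chain amino acid synthesis, whose start is 1067 bp away from the open reading frame of ATG33. The gene start nearest to the peak centre was that of ILV5 in 5 of 6 IPs and that of ATG33 in 1.

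**Figure D3:**
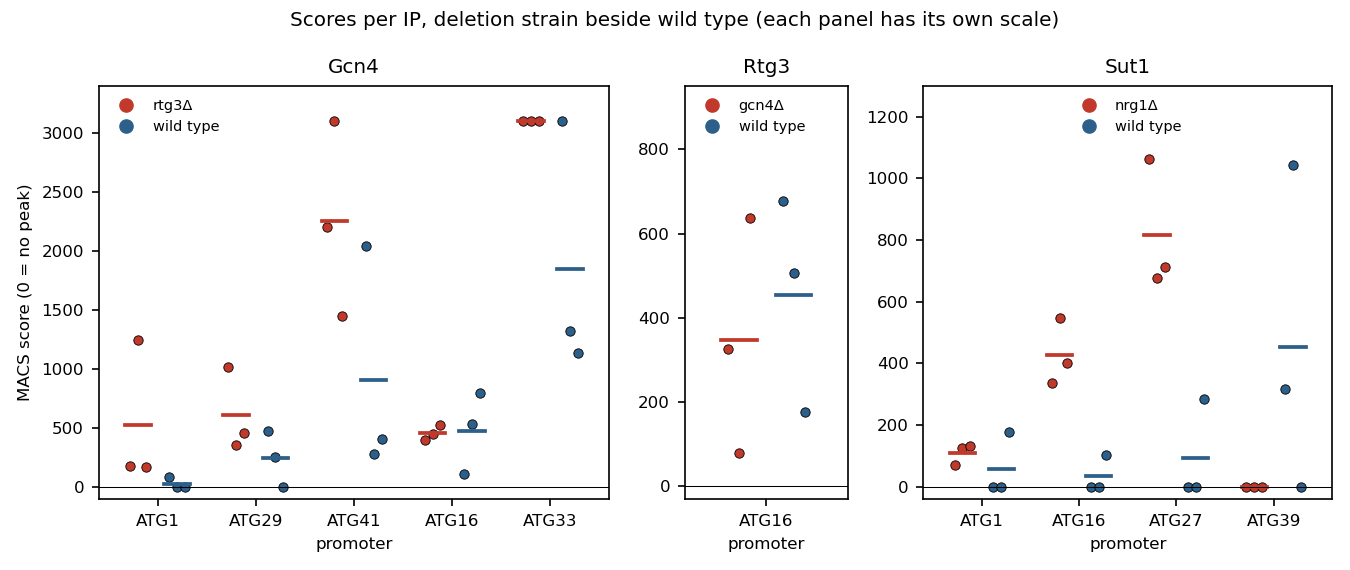
MACS score in each IP (points, 0 where the list had no peak) with the mean (bar), for deletion strains (red) left of wild type (blue), at ATG promoters occupied by Gcn4p, Rtg3p and Sut1p; each panel has its own linear scale. The strains did not overlap at ATG1 for Gcn4p and at ATG16 and ATG27 for Sut1p, and overlapped at the others.

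ATG16, whose product joins the Atg12p-Atg5p conjugate into the complex that directs Atg8p lipidation (chromosome 13 from 574476 to 574928, reverse strand), was occupied in all 6 Gcn4p IPs. Its scores were 399.6, 453.6 and 531.2 in rtg3Δ, and 109.9, 534.7 and 794.7 in wild type. The wild-type range enclosed the rtg3Δ range (difference in means -18.3; exact permutation test, p = 0.9; adjusted p = 1.0).

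The other Gcn4p peaks at ATG promoters stood in single IPs. ATG22, which encodes a vacuolar amino acid exporter, had the top score of its list in rtg3Δ replicate 1 (3227.0) and no peak in the other 5 IPs. ATG18, a lipid-binding partner of Atg2p, had 225.5 in the same IP alone, and ATG9 had 59.1 in wild-type replicate 3 alone. Across the 8 ATG promoters with a Gcn4p peak, 1 was higher in rtg3Δ with no overlap between strains, where 2.8% of the 1501 promoters with a peak were, and 0 were lower, where 3.66% were. The mean score was higher in rtg3Δ at 6 of the 8, against 51.7% over the 1501. The median difference was 434.8, against 12.4 over the 1501. ATG22, ATG18 and ATG9 had a peak in a single IP, which fixed their direction. The scores are also not scaled between IPs, so this count does not test the strains. No promoter of the 1501 had an adjusted or unadjusted p below 0.05, which 3 against 3 cannot reach. The count of ATG promoters without overlap rested on single IPs. Leaving out wild-type replicate 1 gave 5, with ATG16 lower and ATG1, ATG29, ATG33 and ATG41 higher in rtg3Δ, beside 19.7% of all promoters with a peak. Leaving out rtg3Δ replicate 3 gave 2, ATG1 and ATG41, beside 10.6%, and leaving out rtg3Δ replicate 1, the IP with the highest median score, left ATG1, beside 12.3%.

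Rtg3p in the same rapamycin treatment occupied 1, 2 and 1 ATG promoters in gcn4Δ, and 2, 1 and 1 in wild type. The mean share was 3.6 ± 1.56% in gcn4Δ, against 1.78 ± 1.39% of all promoters, and 3.6 ± 1.56% in wild type, against 3.64 ± 1.76% of all promoters (SD, n = 3). ATG16 was the supported ATG promoter in each strain, 1 of 37, where 0.653% of all promoters were supported in gcn4Δ and 2.32% in wild type. The Rtg3p scores at ATG16 were 326.9, 80.0 and 638.0 in gcn4Δ, and 678.2, 507.3 and 175.6 in wild type. Values of the strains were interleaved (means 348.3 ± 279.6 in gcn4Δ and 453.7 ± 255.5 in wild type; SD, n = 3 each; exact permutation test, p = 0.7; adjusted p = 1.0). In 4 of 6 lists the ATG16 peak stood between percentiles 92.2 and 99.7 of the scores, and in wild-type replicate 1 it was 2nd of 297 peaks. The remaining Rtg3p peaks were at ATG42, a vacuolar carboxypeptidase gene, in gcn4Δ replicate 2 (83.6) and at ATG27 in wild-type replicate 1 (478.5). None of the 3 ATG promoters with an Rtg3p peak separated the strains, where 3.15% of 667 promoters did in either direction.

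Gcn4p and Rtg3p both had peaks at ATG16, in separate IPs from different strains. This overlap does not show the factors at the promoter together, and each deletion strain lacked the other factor. In the deletion strains the promoter supported for both was 1 of the 5 ATG promoters of Gcn4p (20.0%) and the 1 of Rtg3p (100.0%), while over all promoters 12 were supported for both, 2.71% of those of Gcn4p and 28.6% of those of Rtg3p. In wild type it was 1 of 4 (25.0%) and 1 of 1 (100.0%), and over all promoters 59 were shared, 10.5% of those of Gcn4p and 39.6% of those of Rtg3p. Of all 6430 promoters, 137 had a Gcn4p peak in all 6 IPs, 6 had an Rtg3p peak in all 6, and 3 had both in all 12. ATG16 was the ATG promoter among them, and the promoter of the neighbouring gene CVM1 was among them through the same peaks. Counted over the 30 lists, ATG16 had a peak in 17. Only 2 promoters reached that number, those of ATG16 and CVM1, so they are 1 locus counted at 2 genes. These peaks were not centred on the promoter. Gcn4p peaks were centred 118 to 457 bp downstream of the ATG16 start, within or just past a gene of 453 bp, and overlapped the promoter by 7 to 600 bp. Rtg3p peaks were centred from 255 bp upstream to 682 bp downstream and overlapped it by 5 to 600 bp. The divergent gene CVM1 starts 137 bp away, and every one of the 17 peaks overlapped its promoter as well.

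**Figure D4:**
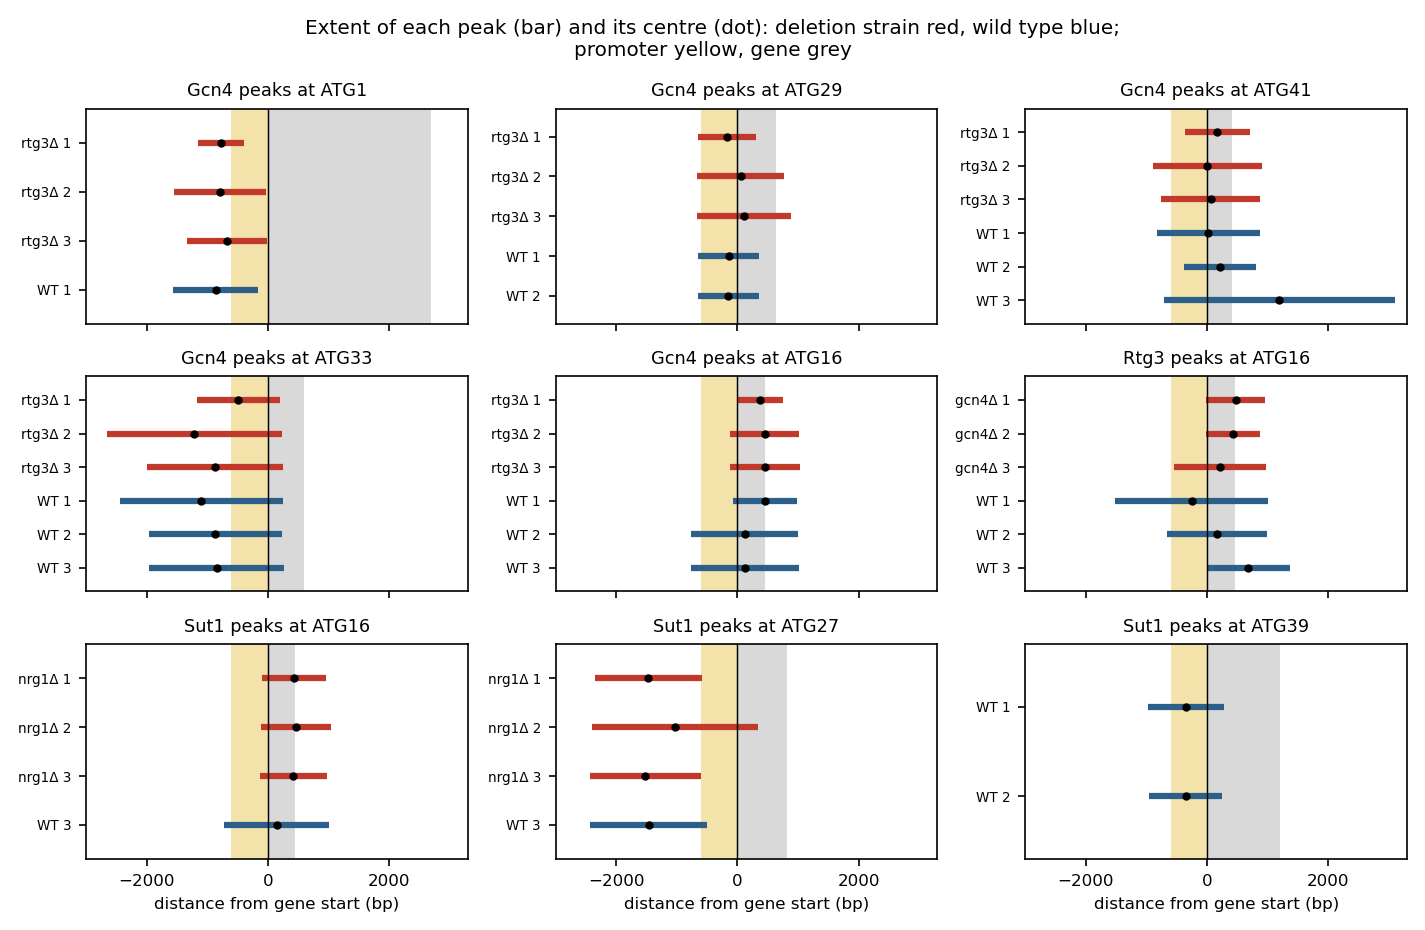
Extent (bar) and centre (dot) of each peak, in bp from the gene start with negative values upstream, for deletion strains (red) above wild type (blue); the 600 bp promoter is yellow and the gene grey. The Gcn4p peaks at ATG1 lay upstream of the gene, those at ATG41 over its start, those at ATG33 towards the divergent ILV5, and most peaks at ATG16 over the gene itself.

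Without rapamycin, Sut1p had the most ATG promoters. It occupied 4, 6 and 10 in nrg1Δ, in lists of 696, 808 and 1065 peaks, and 1, 2 and 6 in wild type, in lists of 117, 267 and 579. The mean share was 18.0 ± 8.26% in nrg1Δ, against 15.6 ± 3.05% of all promoters, and 8.11 ± 7.15% in wild type, against 7.02 ± 4.23% of all promoters (SD, n = 3). Supported were 6 of 37 in nrg1Δ (16.2%), where 13.8% of all promoters were, and 1 of 37 in wild type (2.7%), where 3.56% were. Both shares were close to those of all promoters. In nrg1Δ the supported promoters were ATG1, ATG3, ATG16, ATG21, ATG26 and ATG27, of which ATG1, ATG16 and ATG27 had a peak in every IP, and in wild type it was ATG39.

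At ATG16, Sut1p scores were 335.5, 546.3 and 402.9 in nrg1Δ, and 104.3 in wild-type replicate 3 with no peak in replicates 1 and 2. All nrg1Δ IPs were above all wild-type IPs, with means of 428.2 ± 107.7 and 34.8 ± 60.2 (SD, n = 3 each; exact permutation test, p = 0.1, the smallest possible; adjusted p = 0.608). As with Gcn4p, the centres lay 146 to 467 bp downstream of the gene start. With equal numbers of peaks per list the strains overlapped at ATG16, with a difference in means of 294.0 in place of 393.5 (exact permutation test, p = 0.4).

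ATG27, a membrane protein gene of Atg9p transport (chromosome 10 from 89282 to 90097, reverse strand), had Sut1p scores of 1062.0, 676.3 and 711.4 in nrg1Δ. In wild type it had 284.5 in replicate 3 and no peak in replicates 1 and 2, so that the strains did not overlap (means 816.6 ± 213.3 and 94.8 ± 164.2; SD, n = 3 each; exact permutation test, p = 0.1; adjusted p = 0.608). These peaks lay mainly over the divergent ribosomal protein gene RPL17B, the nearest gene start to all 4 centres. They overlapped the ATG27 promoter by 12, 600 and 1 bp in nrg1Δ and by 105 bp in wild type, and with a minimum overlap of 100 bp neither ATG27 nor ATG16 separated the strains.

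ATG1 had Sut1p scores of 70.0, 124.8 and 132.7 in nrg1Δ, against 176.0 in wild-type replicate 3 alone, which was above all 3 (exact permutation test, p = 0.4; adjusted p = 0.961). The nrg1Δ peaks were centred 239 to 316 bp upstream of ATG1, nearer the gene than those of Gcn4p. ATG21, a lipid-binding protein of the Cvt pathway, had 239.4 and 115.6 in nrg1Δ replicates 2 and 3, against 111.6 in wild-type replicate 3. ATG26, a sterol glucosyltransferase gene, had 140.8 and 267.4 in nrg1Δ replicates 2 and 3, and ATG3, the E2-like enzyme of Atg8p, had 82.5 and 56.3 in nrg1Δ replicates 1 and 3, with no peak of either in wild type. For ATG21, ATG26 and ATG3 the strains tied at 0 in at least 1 IP (exact permutation test, p = 0.4 for each; adjusted p = 0.961).

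ATG39, the receptor gene for autophagy of the nuclear envelope (chromosome 12 from 757637 to 758833, reverse strand), ran the other way. It had no Sut1p peak at its promoter in nrg1Δ, against 317.9 and 1043.4 in wild-type replicates 1 and 2 and no peak in replicate 3 (exact permutation test, p = 0.4; adjusted p = 0.961). Both wild-type peaks were centred at -352 bp from the gene start, nearer to the start of the divergent gene MRPL15.

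No ATG promoter had a peak in all 3 wild-type Sut1p IPs, and replicate 3 shared none with the others. Replicates 1 and 2 held ATG39 and, in replicate 2, ATG40 (78.6), the gene of a receptor for endoplasmic reticulum. Replicate 3 held ATG1, ATG7, ATG9, ATG16, ATG21 and ATG27, of which 5 of 6 (83.3%) also had a peak in an nrg1Δ IP, against 0 of 1 and 0 of 2 for replicates 1 and 2. Over all promoters the shares with a peak in an nrg1Δ IP were 71.6% for replicate 3, 59.1% for replicate 1 and 55.1% for replicate 2. Across the 14 ATG promoters with a Sut1p peak, 2 were higher in nrg1Δ without overlap, where 16.2% of 2056 promoters were, and 0 were lower, where 0.243% were. Leaving out wild-type replicate 3 gave 4 of either direction (ATG1, ATG16 and ATG27 higher and ATG39 lower in nrg1Δ), beside 29.9% of promoters. Leaving out nrg1Δ replicate 1 gave 4 as well (ATG16, ATG21, ATG26 and ATG27), beside 27.3%. No promoter of the 2056 had an adjusted or unadjusted p below 0.05.

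Nrg1p, Swi6p and Swi4p had few peaks at ATG promoters, and for Nrg1p in both strains, Swi6p in swi4Δ and Swi4p in wild type few of all promoters had one either. Nrg1p occupied 0, 0 and 0 in sut1Δ, and 1, 0 and 0 in wild type, the 1 being ATG16 with a score of 54.3. The mean shares were 0.0% of ATG promoters and 0.793% of all promoters in sut1Δ, and 0.901% and 0.607% in wild type. Supported were 0 of 37 in either strain, where 0.7% of all promoters were supported in sut1Δ and 0.187% in wild type, and ATG16 did not separate the strains, where 10.8% of 166 promoters did (exact permutation test, p = 1.0). Swi6p occupied 0 and 0 in swi4Δ and 0 and 1 in wild type, the 1 being ATG31, a gene of the Atg1 kinase complex, with 58.0. Supported were 0 of 37 in both strains, where 0.0% of all promoters were supported in swi4Δ and 5.66% in wild type. Of 653 promoters with a Swi6p peak, 55.7% separated the strains, and ATG31 did not (exact permutation test, p = 1.0; 2 against 2 cannot go below 0.33).

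Swi4p had no ATG promoter in its swi6Δ IP, where 6.1% of all promoters had a peak, and 1 in its wild-type IP, where 2.26% had. That was ATG40, with 360.6, from a peak of 5699 bp over the divergent drug transporter gene PDR5 that overlapped the ATG40 promoter by 43 bp. With 1 IP per strain there is no replicate check of this pair. In the wild-type Swi6p IPs, 1.35 ± 1.91% of ATG promoters had a peak, against 7.78 ± 1.1% of all promoters (SD, n = 2).

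Genes that work with the ATG genes but carry other names were looked up in the same way. Of 15 autophagy partners, 1 was supported for Gcn4p in either strain, VAC8, which encodes a vacuolar protein that anchors the Atg1 complex, where 6.89% of all promoters were in rtg3Δ and 8.72% in wild type. It had 0, 164.0 and 227.6 in rtg3Δ and 0, 472.4 and 76.6 in wild type, so that the strains overlapped. Sut1p had 2 of 15 in nrg1Δ, VAC8 and the receptor gene CUE5, where 13.8% of all promoters were supported, and 0 in wild type. VAC8 had Sut1p scores of 132.1, 346.3 and 288.0 in nrg1Δ and no peak in wild type (exact permutation test, p = 0.1, adjusted p = 0.608). Every nrg1Δ IP was thus above every wild-type IP, as at 16.2% of the 2056 promoters with a Sut1p peak. APE1, which encodes the aminopeptidase that is the main cargo of the Cvt pathway, was the partner in the cell cycle lists. Its Swi6p scores were 421.6 and 337.7 in wild type with no peak in swi4Δ (exact permutation test, p = 0.33, the smallest possible, adjusted p = 0.598). The swi4Δ lists held 3 and 8 peaks, and 364 of 653 promoters with a Swi6p peak (55.7%) were likewise lower in swi4Δ without overlap. The Swi4p scores of APE1 were 938.9 in swi6Δ and 683.3 in wild type.

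Of 10 genes of TORC1 and nutrient signalling, Gcn4p had 2 supported in rtg3Δ, SCH9 and NPR1, and 1 in wild type, SCH9, the gene of a kinase that TORC1 phosphorylates; 6.89% and 8.72% of all promoters were supported. SCH9 had Gcn4p scores of 741.6, 65.1 and 725.2 in rtg3Δ and 871.9, 1458.1 and 1026.0 in wild type, so that every rtg3Δ IP was below every wild-type IP (exact permutation test, p = 0.1; adjusted p = 1.0). NPR1, the gene of a kinase that acts on amino acid permeases, had 238.4, 101.2 and 87.2 in rtg3Δ, all above the 73.6 of wild-type replicate 1, the only wild-type IP with a peak (p = 0.1 by the same exact test; adjusted p = 1.0). Over all promoters with a Gcn4p peak, 3.66% were lower without overlap, as SCH9 was, and 2.8% higher, as NPR1 was. Against the same shares of all promoters, 13.8% in nrg1Δ and 3.56% in wild type, Sut1p had 3 of 10 in nrg1Δ (SCH9, SIT4 and TAP42) and 1 in wild type (SIT4). SCH9 and TAP42 were higher in nrg1Δ without overlap, where 16.2% of promoters with a Sut1p peak were, and SIT4, a phosphatase gene of the TORC1 branch, had 261.4, 396.7 and 177.1 in nrg1Δ and 290.8, 1994.1 and 109.6 in wild type. Of 8 transcriptional regulators of ATG genes, Gcn4p had 1 in each strain, GLN3, an activator of nitrogen-catabolite genes. It had 155.0 and 238.4 in rtg3Δ replicates 2 and 3, and 217.3 and 181.9 in wild-type replicates 1 and 3. The promoter of GCN4 itself had Swi6p scores of 1243.0 and 728.6 in wild type with none in swi4Δ. PHO23 was the other regulator supported for Swi6p in wild type (150.4 and 94.6), also with none in swi4Δ. That made 2 of the 8, where 5.66% of all promoters were supported. Of promoters with a Swi6p peak, 55.7% were lower in swi4Δ without overlap. GCN4 also had a Swi4p score of 348.9 in swi6Δ with none in wild type. Its Sut1p scores were 224.5, 51.3 and 62.9 in nrg1Δ, against 104.9 in wild-type replicate 2 alone. Rtg3p and Nrg1p had none of these 33 promoters supported in either strain. Few of all promoters were supported for these factors either. The shares were 0.653% in gcn4Δ and 2.32% in wild type for Rtg3p, and 0.7% in sut1Δ and 0.187% in wild type for Nrg1p.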

How the data were processed

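The authors discarded reads without a unique alignment, and MACS peaks were called by IP against INPUT with replicates kept apart. By the labels, Gcn4p and Rtg3p had an INPUT for each IP, whereas Sut1p, Nrg1p and Swi6p had 1 INPUT per strain. The IPs of such a strain shared that INPUT, so it cannot be told apart from the strain. The submitters' processing notes name CASAVA 1.8, Novoalign 2.07.0, MACS 1.4.0rc2 and build R64. The deposited lists give each peak's position and its score (-10 log10 p), which is not scaled between IPs. The paper's test used IP to INPUT read ratios, which are not analysed here. It lists ATG16 among the joint targets of Gcn4p and Rtg3p, and ATG41 among the targets of Gcn4p alone. By those ratios, it reports more Gcn4p at the joint targets in wild type than in rtg3Δ. For the targets of Gcn4p alone it reports no significant difference. Those results are for sets of genes and another measure, so the scores of single promoters here do not test them.

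Gene starts are translation starts of the R64 RefSeq annotation, which lists 6431 nuclear genes; 1 was left out because its name gives no strand. Positions count from 1, and 21 peak starts below the first base were set to it. A promoter's score was its highest peak, or 0. Support meant a peak in at least 2 IPs, or in the single Swi4p IP. For each promoter, IP scores of the strains were compared by exact permutation, two-sided, with Benjamini-Hochberg adjustment over all promoters with a peak, and promoters were counted where IPs of the strains did not overlap. The function was tested on simulated data. Every ATG promoter supported in a strain or without overlap is named with its scores per IP, other occupied ATG promoters by counts and values, and at most 3 supported genes of each other list. Members, lists and tests were chosen with earlier results of these data known. Alternatives were scores from 100 up, overlaps from 100 bp up, the peak centre inside the promoter, a 300 bp promoter, a promoter ending at the upstream gene, equal numbers of peaks, ranks, a replicate block, leaving out each IP and, chosen after seeing the data, the nearest gene start. Python 3.11.15, NumPy 2.4.6, pandas 2.3.3, SciPy 1.17.1 and Matplotlib 3.10.9 were used.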

Additional observations from a re-analysis of the deposited data

How the results depend on the processing

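The depth is unknown, so an absent peak does not show an unoccupied promoter. Values in parentheses are the same measure over all promoters. A promoter ending at the upstream gene moved no result. Counting only peaks centred inside the promoter gave a mean ATG share of 3.6% (3.53%) with 0 supported (2.44%) for Gcn4p in rtg3Δ, 1.8% (3.22%) with 1 (2.32%) in wild type, 0.0% (0.648%) with 0 (0.202%) for Rtg3p in gcn4Δ, 0.901% (1.42%) with 0 (0.715%) in wild type, 8.11% (7.97%) with 3 (6.78%) for Sut1p in nrg1Δ, beside 3.6% (2.58%) in wild type, and 0.0% with 0 (0.84%) for Swi4p in wild type; 0 ATG promoters were without overlap for Gcn4p (5.03%) and 1, ATG1, for Sut1p (14.9%). Scores from 100 up gave 9.91% (6.81%) for Gcn4p in wild type and 1.8% (1.0%) for Rtg3p in gcn4Δ. An overlap of 100 bp gave 1.8% (1.58%) with 0 supported (0.529%) for Rtg3p in gcn4Δ, 0.0% with 0 (2.16%) for Swi4p in wild type, and 0 without overlap for Sut1p (15.8%). The 300 bp promoter gave 0.0% with 0 (2.08%) for Swi4p in wild type, 0 without overlap for Gcn4p (6.14%) and 1, ATG16, for Sut1p (15.6%). Equal numbers of peaks gave 4.5% (2.75%) with 2 supported (2.22%) for Sut1p in nrg1Δ, beside 3.6% (2.79%) in wild type, 0 without overlap for Gcn4p (5.95%) and 1, ATG27, for Sut1p (7.75%). Ranks gave 0 for Gcn4p (5.73%). The nearest gene start, chosen after seeing the data, gave 5.41% (5.76%) with 2 supported (4.74%) for Gcn4p in wild type, 1.8% (2.19%) for Rtg3p in wild type, 9.01% (9.57%) with 3 (8.16%) for Sut1p in nrg1Δ, beside 3.6% (3.95%) with 0 (1.76%) in wild type, 0.0% with 0 (1.09%) for Swi4p in wild type, and 1 without overlap, ATG16, for Sut1p (14.6%).

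Leaving out each IP in turn gave 1 to 5 ATG promoters without overlap for Gcn4p (8.09% to 19.7%) and 2 to 4 for Sut1p (16.9% to 29.9%). For Swi6p it gave 0 to 1 (57.6% to 96.7%), the 1 being ATG31 without wild-type replicate 1, beside 95.9%. For Rtg3p (4.47% to 11.8%) and Nrg1p (11.3% to 24.1%) it gave 0 in each case. At ATG16, which did not separate the strains for Gcn4p or Rtg3p, the difference turned its sign in 3 of 15 alternatives for each factor. The cause of these changes was not tested. The replicate numbers did not pair the IPs: deviations of same-numbered IPs correlated at -0.25 to 0.43 and in 0 of 5 factors were all above 0.1. With the replicate number as a block, 3 ATG promoters (ATG1, ATG29 and ATG41) were higher in rtg3Δ in every pair for Gcn4p, beside 8.73% of promoters in either direction, and no other count moved.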

Other observations

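Some ATG genes had peaks over the gene that did not reach the promoter. Over the 30 lists this happened 21 times at 11 ATG genes, 8 of which had no promoter peak in any list. That is 29.7% of ATG genes, against 28.9% of all genes. ATG8 had such a Sut1p peak in all 3 nrg1Δ IPs (200.0, 79.9 and 131.8) and in none of the wild-type IPs. These peaks were centred 550 to 613 bp downstream of the start of a 354 bp gene, so that their centre lay past its end, and they overlapped it by 259 to 291 bp. Such a peak in all 3 nrg1Δ IPs was found at 2 of 37 ATG genes (5.41%), ATG8 and ATG39, and at 2.47% of all genes.

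ATG39 had a peak over the end of the gene in 8 lists, with scores of 53.3 to 572.3. These were Gcn4p in rtg3Δ replicates 2 and 3, Rtg3p in wild-type replicates 1 and 2, Sut1p in all 3 nrg1Δ IPs (243.0, 437.4 and 572.3) and Sut1p in wild-type replicate 3 (331.9). Their centres lay 1392 to 1854 bp downstream of the start of a 1197 bp gene, nearest to the start of the neighbouring gene CDC25 in all 8, and overlapped ATG39 by 139 to 406 bp. The Sut1p lists therefore held ATG39 at its end in nrg1Δ and wild-type replicate 3, and at its promoter in wild-type replicates 1 and 2. ATG38, a subunit of the phosphatidylinositol 3-kinase complex, had 657.9 in Gcn4p rtg3Δ replicate 1 alone, and ATG32, the mitophagy receptor gene, had Sut1p scores of 64.9 and 82.0 in nrg1Δ replicates 1 and 3 from peaks nearest to the start of SLN1. The other genes had 1 list each, with scores of 52.1 to 195.2.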
